A study of Bos grunniens with 6 samples.

Results

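The genes described here encode proteins that splice, bind, unwind or degrade RNA. They were taken from the list of m6A peaks by symbol: SR proteins (SRSF, SRRM), heterogeneous nuclear ribonucleoproteins (HNRNP), spliceosome subunits and LSM proteins (SF3, PRPF, U2AF, LSM), RBM and RBMS proteins, tissue regulators of splicing (RBFOX, CELF, MBNL), regulators of mRNA stability and translation (ELAVL, PUM, CPEB), DEAD/DEAH box helicases (DDX, DHX), the deadenylation, decapping and decay machinery (CNOT, DCP, XRN, EXOSC) and factors of 3' end formation (CPSF, CSTF). *RBM15* and *DDX4* were left out. The rule took 157 gene identifiers, which carry 142 symbols and hold 290 of the 16186 peaks, out of 8986 genes with a peak. Having a peak is therefore a condition of entry and not a finding.

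Testes were obtained by castration from 3 healthy cattle-yaks aged 5 years, the hybrid of cattle and yak whose males are sterile, and are called TES5, TES6 and TES7 after the labels. Poly(A) RNA of each was fragmented, and a library was made from the fragments bound by an anti-m6A antibody (IP) and from the fragments before binding (input), giving 6 libraries. The peak list is 1 list for the 3 animals together and carries no score and no value per animal, whereas FPKM, a measure of expression that is scaled by transcript length and library size, are given for each input library. With 1 condition, no test between conditions was possible, and reads were placed on a yak genome (LU_Bosgru_v3.0), to which all coordinates below refer.

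N6-methyladenosine (m6A) is a methyl mark set on adenosines of mRNA in the nucleus and read by proteins that act on splicing, export, translation and decay. The proteins described here carry out those same steps: SR proteins and hnRNPs choose splice sites, snRNP subunits cut and join exons, helicases remodel RNA and its complexes, and deadenylases, decapping enzymes and exonucleases remove mRNA. The testis is known for an unusually broad use of alternative splicing, for stored mRNAs whose translation is delayed, and for germ cell forms of several of these families.

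Before the values, the identity of the genes needs a remark. Of the 157 identifiers, 28 share 1 of 13 symbols with another identifier, always on the same chromosome. In 7 of these 13 symbols the identifiers lie on opposite strands, and in 11 the highest mean FPKM was over 2 times the lowest. For 16 identifiers (10.2%), the gene ontology terms listed beside the symbol name another kind of product, and 12 of these 16 share a symbol. Among them are *EXOSC7* (heparin binding), *DHX30* (microtubule binding), *DHX37* ENSBGRG00000012018 (protein ubiquitination), *CPEB4* ENSBGRG00000013644 (kinetochore) and *CNOT4* ENSBGRG00000003725 (male germ-line stem cell asymmetric division). Their values are given under the symbol the file carries, and what they encode is uncertain. Over all members with a term, 82 of 151 (54.3%) carried the term RNA binding, against 5.92% of 7944 genes with a peak and a term.

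Most peaks of the RNA processing genes were of the exon class, like peaks in general, with a somewhat larger share in 5' UTRs. The authors' annotation put 188 of the 290 peaks (64.8%, Wilson 95% interval 59.2 to 70.1%) in exons, 66 (22.8%, 18.3 to 27.9%) in 3' UTRs and 36 (12.4%, 9.10 to 16.7%) in 5' UTRs. Over all listed peaks, the shares were 70.3%, 20.8% and 8.82%. Counted by gene, 121 members (77.1%) had an exon peak against 77% of all genes with a peak, 58 (36.9%) had a 3' UTR peak against 32.1%, and 31 (19.7%) had a 5' UTR peak against 14%. The intervals cover counting error only, since peaks of 1 gene and 1 pooled list are not replicates. Peaks in all 3 classes were listed for 5 members (3.18%, against 1.87% of all genes with a peak), among them *PRPF31*, *DHX36*, *MBNL3* and *PUM2* ENSBGRG00000020622, the last of which has terms of a plasma membrane protein.

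**Figure D1:**
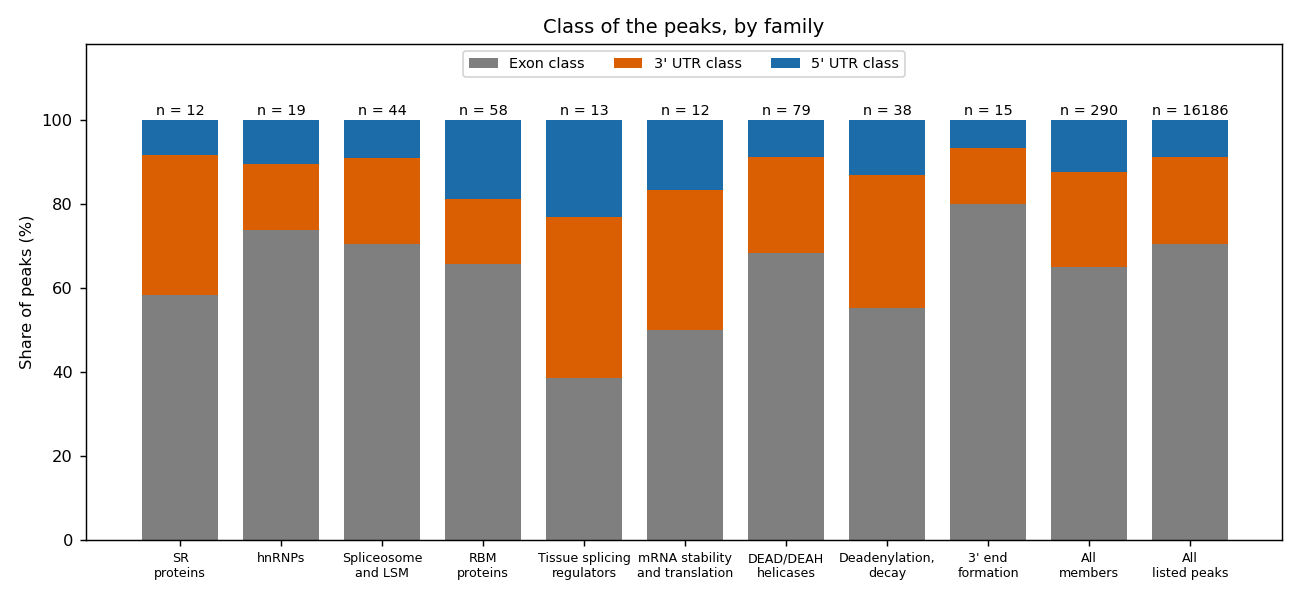
Share of peaks (%, vertical axis) of the exon class, the 3' UTR class and the 5' UTR class for each of 9 families, for all members and for all listed peaks, with the number of peaks above each bar. The exon class ranges from 38.5% of 13 peaks in tissue splicing regulators to 80% of 15 peaks in 3' end formation.

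The families differed in these shares, although most hold few peaks. Tissue splicing regulators had 5 of 13 peaks (38.5%, interval 17.7 to 64.5%) in exons, 5 in 3' UTRs and 3 in 5' UTRs. The deadenylation and decay genes had 12 of 38 peaks (31.6%, 19.1 to 47.5%) in 3' UTRs. RBM genes had 11 of 58 peaks (19.0%, 10.9 to 30.9%) in 5' UTRs, the largest number of any family, and 3 of these lay in *RBM6*. The factors of 3' end formation had 12 of 15 peaks (80%, 54.8 to 93.0%) in exons. The intervals of these shares overlap one another, so no order of the families can be read from them at this number of peaks.

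The peaks of the RNA processing genes were wider than peaks in general. Width here is the distance on the genome from the start of a peak to its end, introns included. Its median was 1798.5 bp (quartiles 443.25 and 5171.25 bp) against 1022 bp over all listed peaks. At most 1000 bp were covered by 115 of 290 peaks (39.7%, 34.2 to 45.4%) against 49.8% of all. The excess was not in the widest peaks, since 38 (13.1%, 9.70 to 17.5%) exceeded 10000 bp against 14.4% of all. Exon peaks had a median of 1989 bp against 1333 bp, 3' UTR peaks 693.5 bp against 447 bp, and 5' UTR peaks 1261 bp against 1985 bp, so the difference ran the other way in the 5' UTR class. Peaks of the mRNA stability and translation regulators were the narrowest of the 9 families, with a median of 273.5 bp and 9 of 12 peaks at 1000 bp or less. Among these 9 are peaks of identifiers whose terms name another product, in *CPEB4* ENSBGRG00000013644 (249 bp) and *PUM2* ENSBGRG00000020622 (198, 150 and 347 bp).

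Within the transcript, a larger share of member peaks than of all peaks was near the 5' end. A smaller share of exon peaks was annotated to the last exon. The centre of 65 of 285 peaks (22.8%) fell in the first 20% of the listed transcript's span on the genome, against 16.4% of 15986 peaks over all genes, while the last 20% held 125 (43.9%) against 44.5%. Centres upstream of the span, as in *DDX49* ENSBGRG00000001122, were counted in the first 20%. Those past its end, as in *RBM46*, were counted in the last. The other 5 peaks lay wholly outside the transcript listed beside them, in *RBM12B* (with 2 such peaks), *CPEB4* ENSBGRG00000013644, *SF3A1* ENSBGRG00000023814 and *MBNL3*. Of the 188 exon peaks, 17 (9.04%, 5.72 to 14.0%) were annotated to the last exon against 18.2% of all exon peaks. If every exon of each transcript were equally likely, 14.0% and 16.9% would have been in the last exon. In transcripts of at least 3 exons, the count was 5 of 171 (2.92%) against 11.6% over all such exon peaks, where equal exons would give 8.35% and 10.5%. The gap was also present among exon peaks of at most 1000 bp, of which 13 of 63 (20.6%) were annotated to the last exon against 35.8% of all. Without the 16 identifiers whose terms name another product, the counts were 3 of 155 (1.94%) in transcripts of at least 3 exons and 7 of 54 (13.0%) among exon peaks of at most 1000 bp. The first exon held 39 (20.7%, 15.6 to 27.1%) against 18.4%. The median exon number of a transcript with an exon peak was 15 against 12. ChIPseeker gives 1 class and 1 exon per peak, so a wide exon peak can also reach into a UTR or a later exon. Some exon peaks at the 3' end of the span, narrow ones among them, were annotated to an earlier exon. Examples are *DDX21* (248 bp, exon 15 of 16, from 98.95% of the span) and *CPSF2* (537 bp, exon 15 of 16, from 98.29%). The last exon shares are therefore counts of labels, and how many peaks overlap the last exon was not counted.

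**Figure D2:**
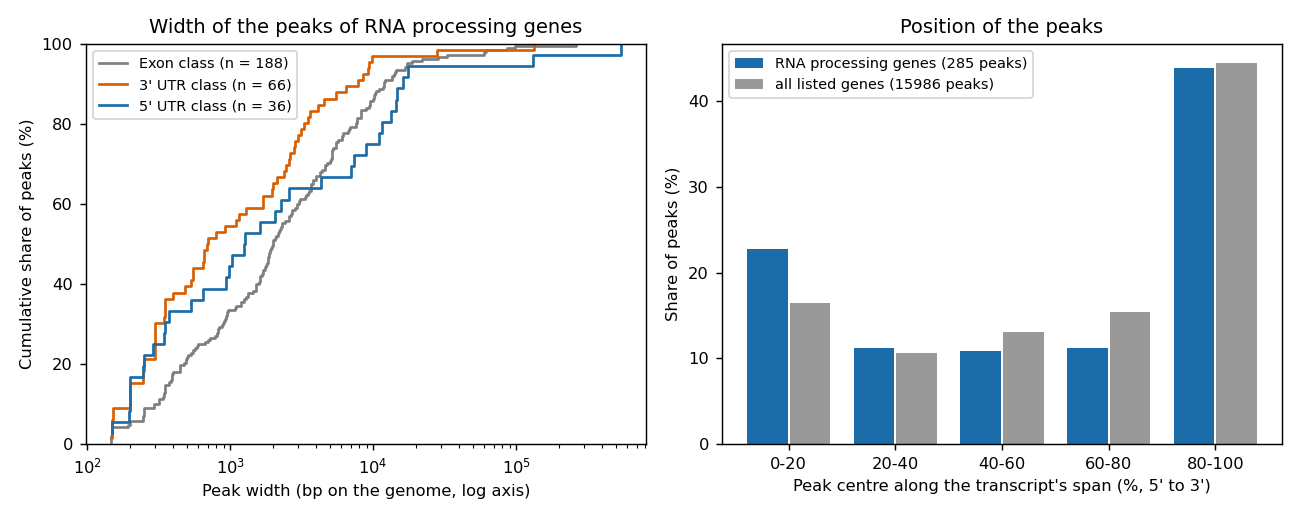
Left: cumulative share of member peaks (%) against peak width (bp on the genome, log axis) for 188 peaks in exons, 66 in 3' UTRs and 36 in 5' UTRs. Right: share of peaks (%) whose centre lies in each 20% of the transcript's span from 5' to 3', for 285 member peaks and 15986 listed peaks. Centres beyond either end of the span are counted in the nearest 20%. The 3' UTR curve is the steepest at low widths, and in the first 20% of the span members reach 22.8% against 16.4%.

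More members than genes in general had more than 1 peak, but the mean number of peaks per gene was close, at 1.85 against 1.80. The rank correlation of peak number with expression was close to 0. A single peak was listed for 72 of 157 members (45.9%, 38.3 to 53.7%), while 54 had 2 peaks, 19 had 3 and 12 had 4 or more. Of all 8986 genes with a peak, 4856 had 1, 2384 had 2, 1034 had 3 and 712 had 4 or more. More than 1 peak was thus found in 54.1% of members against 46% of all genes with a peak. Members with 1 peak had a median FPKM of 13.8 and those with 4 or more a median of 12.8. Across the 157 members, Spearman's rho between peak number and mean FPKM was 0.05, and between peak number and the length of the transcript on the genome 0.24 (0.29 over all 8986 genes). Genes are not independent replicates, and these coefficients are descriptions.

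Among the members with the most peaks were *SF3B1*, *RBM19* and *RBM44*, with 5 each. *SF3B1*, which holds the branch point adenosine within the U2 snRNP, had a 5' UTR peak on chromosome 2 (55725365 to 55736887) and 4 exon peaks, annotated to exons 5, 7, 16 and 20 of 25.

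**Figure D3:**
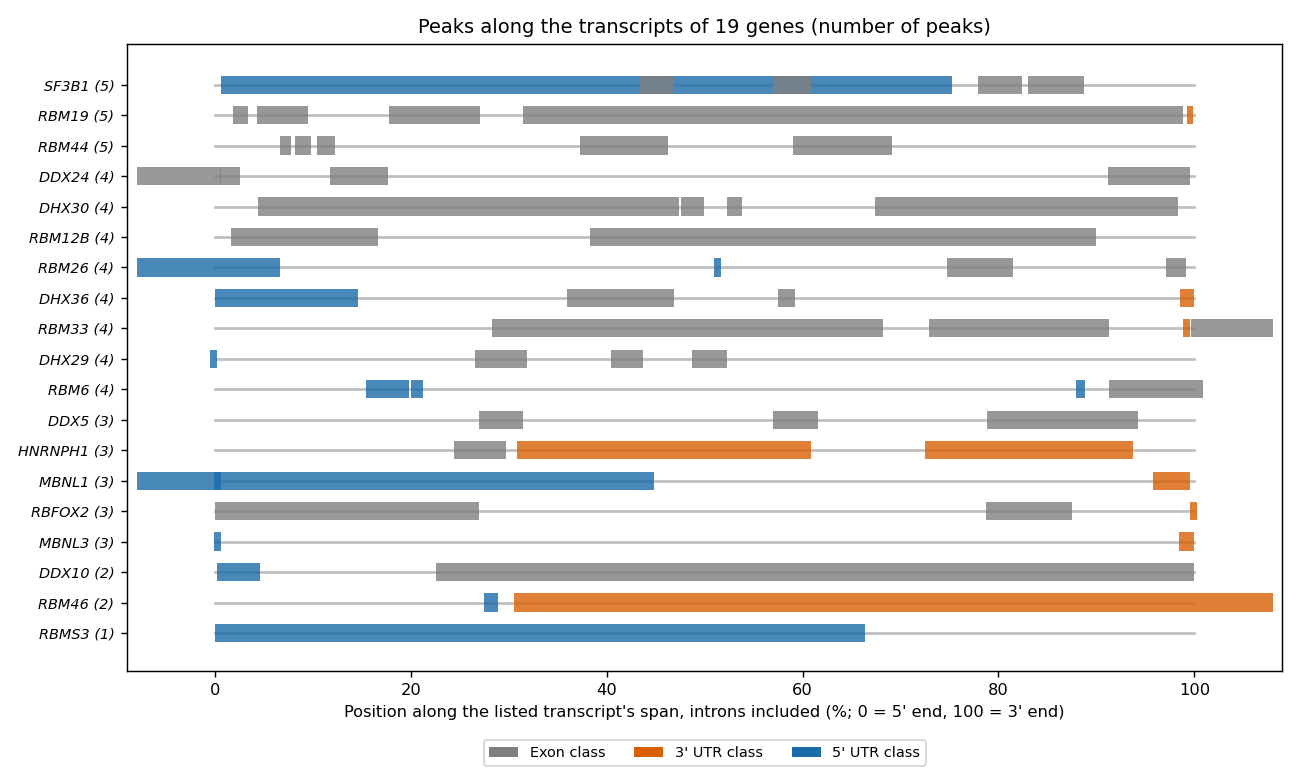
Peaks of 19 genes along the span of the transcript listed beside each peak (horizontal axis, %, 5' to 3', introns included), coloured by class, with the number of listed peaks in parentheses. The first 11 genes have 4 or more peaks, and the last 8 were chosen as examples of very wide or several peaks. Bars are cut 8% beyond each end, and peaks wholly off the transcript (2 of RBM12B and 1 of MBNL3) are not drawn. Peaks of SF3B1, of MBNL1 and, slightly, of DDX24 appear to overlap because those of each gene are placed on 2 different transcripts.

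Over all members, expression was higher than in other genes with a peak. The median of the mean FPKM was 13.9, with medians of 14.8, 14.1 and 13.9 in TES5, TES6 and TES7, against 7.36 over all genes with a peak and an FPKM. In all 3 input libraries, FPKM reached 1 or more for 152 of 157 members (96.8%, 92.8 to 98.6%) against 86.9% of 8775 genes with a peak. A mean FPKM of at least 10 was reached by 108 (68.8%) against 39.7%. In a tissue, fewer cells that express a gene and less RNA per cell cannot be told apart.

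**Figure D4:**
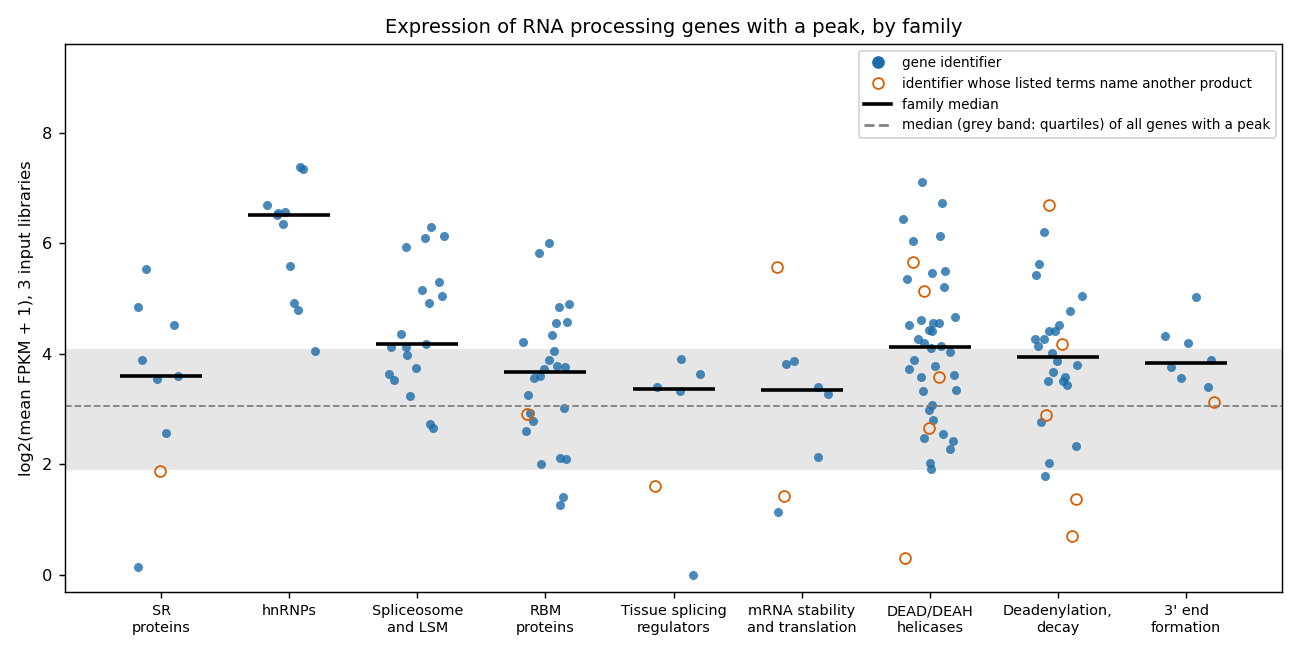
Expression as log2(mean FPKM + 1) over the 3 input libraries (vertical axis) for each member identifier in 9 families. Open circles are identifiers whose listed terms name another product, black bars are family medians, and the dashed line and grey band are the median and quartiles of all genes with a peak. The hnRNP median (90.5 FPKM) lies above those of the other 8 families, which range from 9.15 to 17.2 FPKM.

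The hnRNPs, abundant nuclear proteins that coat nascent transcripts, had the highest level of the families. Their 11 genes had a median FPKM of 90.5, and the lowest, *HNRNPLL*, still had 16.8, 16.5 and 13.2 in the 3 animals. *HNRNPF*, which binds runs of G beside splice sites, was the most highly expressed member of all, at 167, 159.7 and 167 FPKM (mean 165 ± 4.45, SD, n = 3). It had a single exon peak of 1108 bp on chromosome 27 (12293566 to 12294673), in exon 3 of 4. *HNRNPAB* followed at 167, 158 and 158 FPKM. Its peaks were both narrow, 375 bp in the 5' UTR class and 373 bp in exon 5 of 9. The former lay at 75.1 to 76.6% of the listed transcript's span. The 3 animals were close for both genes, with coefficients of variation of 2.70 and 3.14%.

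*HNRNPH1*, a relative of *HNRNPF*, was the hnRNP gene with the most peaks of the 3' UTR class. Its FPKM were 79.4, 86.3 and 75, and its 3 peaks on chromosome 8 were 2 of the 3' UTR class, of 2010 and 2851 bp, and 1 of 508 bp annotated to exon 3 of 13. The peak of 2851 bp, however, lay at 30.8 to 60.9% of the listed transcript's span. *HNRNPUL1*, at 93.5, 87.2 and 90.9 FPKM, also had 3 peaks, 2 in exons and 1 in the 5' UTR. *HNRNPU*, a large nuclear matrix protein, had 2 exon peaks and 88.4, 97.4 and 93.4 FPKM. Of 19 hnRNP symbols in the RefSeq gene table for yak, 10 were in the peak list. *HNRNPA1*, *HNRNPA2B1*, *HNRNPC* and *HNRNPK* were among the 9 without a listed peak, and their FPKM cannot be given because the expression table holds no symbols.

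SR proteins bind exonic enhancers and recruit the splicing machinery. Here their 9 identifiers had a median FPKM of 11.1, within the quartiles of all genes with a peak, and 7 of 12 peaks in exons. *SRSF5* was the highest at 39.3, 47.8 and 49.0 FPKM, lowest in TES5. Its single peak of 1288 bp on chromosome 11 (71541091 to 71542378) was annotated to exon 3 of 7 and took up 49.9% of the transcript's span. *SRSF11* had 26.5, 29.7 and 26.8 FPKM with a 5' UTR peak of 16255 bp and an exon peak of 10077 bp. *SRSF3*, which also acts in mRNA export, was lower, at 4.16, 5.71 and 4.88 FPKM, with 1 exon peak of 14367 bp.

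*SRSF6* was carried by 2 neighbouring identifiers on chromosome 12. ENSBGRG00000011891, with 2 peaks in the 3' UTR, had 10.05, 12.4 and 9.58 FPKM, and ENSBGRG00000012035, whose terms name methylated histone binding, had 3.34, 2.25 and 2.50. *SRRM3*, known from neural microexon splicing, had 2 peaks in the 3' UTR and 9.59, 11.7 and 11.9 FPKM. *SRRM5* was the lowest SR gene, at 0.207, 0.0890 and 0.0406 FPKM, and its single peak was annotated to an exon of another gene. *SRSF1*, *SRSF2*, *SRSF7*, *SRSF9* and *SRSF10* were not in the list.

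Spliceosome subunits and LSM proteins had a median FPKM of 17.2, and their peaks were mainly in exons (31 of 44). The 4 LSM genes listed do not encode spliceosome subunits. Without them, the median was 16.4 FPKM over 15 identifiers, with 29 of 40 peaks in exons. The highest were *SF3A1* and *SF3B1*, both of the U2 snRNP. *SF3A1* ENSBGRG00000023663 had 84.1, 76.5 and 70.2 FPKM, highest in TES5, and *SF3B1* had 57.5, 74.1 and 76.1, lowest in TES5. *U2AF2*, which binds the polypyrimidine tract before the 3' splice site, had 69.9, 63.4 and 68.8 FPKM with a 3' UTR peak of 149 bp and an exon peak of 343 bp. The other identifier under *SF3A1*, ENSBGRG00000023814 on the opposite strand, had 8.27, 5.26 and 3.34 FPKM.

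The PRPF genes, most of them subunits of the U4/U6.U5 tri-snRNP or of the U1 snRNP, were lower, between 5.36 (*PRPF39*) and 29.1 FPKM (*PRPF6*), with 24 peaks on 9 genes. *PRPF31*, which joins U4 to U5, had 1 peak in each class, of 149, 948 and 290 bp, and 21.9, 18.8 and 17.6 FPKM. LSM genes had few peaks, 1 on each of 4 genes. Among them *LSM14B*, a P-body protein that represses translation, was at 62.0, 57.5 and 59.8 FPKM with a 3' UTR peak of 2579 bp. Neither *PRPF8*, the core of the spliceosome, nor *U2AF1* was listed, and of the RefSeq symbols LSM2 to LSM8 none was.

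RBM proteins were many and mostly expressed at moderate levels. The 26 genes had a median FPKM of 11.7, from 1.40 in *RBMS3* to 63.0 in *RBM42*. *RBM39*, a splicing factor of the U2AF65 family, had 54.9, 54.4 and 57.8 FPKM and 1 exon peak of 2860 bp. *RBM5*, *RBM6* and *RBM10* are related regulators of alternative splicing. *RBM5* had 28.7, 27.1 and 27.2 FPKM with a peak in each UTR. *RBM10* had 17.7, 16.4 and 18.4 FPKM with 2 exon peaks. *RBM6* had 9.09, 8.53 and 8.06 FPKM and 4 peaks, 3 of them in the 5' UTR class, although 1 of these (chromosome 22, 12047181 to 12048161) lay at 88.4% of its listed transcript. *RBM15B*, a paralog of the *RBM15* subunit of the m6A writer complex, had 27.6, 28.3 and 30.7 FPKM and 2 exon peaks.

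A pair of RBM genes known from germ cells had peaks of very different shape. *RBM44*, whose protein is found at the intercellular bridges of germ cells, had 12.8, 10.7 and 9.96 FPKM and 5 exon peaks on chromosome 3. Of these, 3 narrow ones (249, 348 and 397 bp, from 128459605 to 128460843) were annotated to exon 2 of 15, and the others, of 1979 and 2211 bp, to exons 9 and 11. *RBM46*, a germ cell protein needed for meiosis, had 7.08, 6.24 and 4.39 FPKM, a 5' UTR peak of 933 bp and a 3' UTR peak of 132501 bp on chromosome 16 (12846756 to 12979256). The latter ran past the end of the listed transcript. Both genes were highest in TES5 and lowest in TES7. The summed FPKM of the spermatocyte markers with a peak (*SYCP1*, *SYCP3* and *DMC1*) was also highest in TES5, at 54.4, 33.8 and 42.0, but lowest in TES6. The part of cell composition in these values was not tested.

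*RBMS3*, which binds single-stranded nucleic acid, held the widest peak of the whole list. It was of the 5' UTR class and spanned 540859 bp of chromosome 22 (63169878 to 63710736), 66.3% of the transcript, in a gene with only 1.41, 1.57 and 1.21 FPKM. Over 50000 bp were 8 of the 290 member peaks, against 352 of all 16186 listed peaks. The others lay in *DDX10* (261674 bp), *RBM46*, *MBNL1* (131981 bp), *RBM19* (98217 bp), *RBFOX2* (87074 bp), *MBNL2* (61495 bp) and *CSTF3* (59536 bp). No member peak contained its whole transcript, which was rare in the list as a whole (139 of 16186 peaks). With 290 member peaks no difference can be read from this. *RBM43* had the largest variation between animals among members with a mean of at least 1, at 0.90, 2.56 and 1.49 FPKM.

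Tissue splicing regulators were represented by 5 symbols, the muscleblind-like genes and RBFOX. MBNL proteins bind pre-mRNA and set the splicing pattern of differentiated tissues. *MBNL1* had 9.43, 11.5 and 13.5 FPKM, *MBNL2* had 12.2, 13.5 and 16.1, and *MBNL3* had 6.28, 9.36 and 11.4. All 3 were lowest in TES5 and highest in TES7. The spermatogonial markers with a peak (*ZBTB16*, *GFRA1* and *KIT*) stood in the same order when summed, at 15.8, 18.9 and 24.2 FPKM, although *GFRA1* alone did not. So did the Leydig cell marker *STAR*, at 100.2, 108 and 112, and the sum of the 4 Sertoli cell markers, at 88.5, 91.4 and 92.7. Of these 4 alone only *SOX9* did, while *WT1* and *FSHR* were highest in TES6 and *INHBB* in TES5. The myoid markers *TAGLN* and *CNN1* also stood in this order. The myoid markers *ACTA2* and *MYH11* did not, and were highest in TES6, as was the myoid sum (339.5, 384 and 369.8). Whether composition had a part in the MBNL values was not tested.

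All 3 MBNL genes had a peak of the 3' UTR class. *MBNL1* had 2 peaks of the 5' UTR class on chromosome 1, of 131981 bp (125622139 to 125754119) and of 347 bp (125754367 to 125754713), and a 3' UTR peak of 3128 bp. The peak of 131981 bp lay at -114.8 to 44.9% of its listed transcript's span, so most of it was upstream of that transcript. *MBNL2* had an exon peak from exon 1 of 7 (61495 bp) and a 3' UTR peak of 27966 bp. *MBNL3*, on chromosome X, had a 5' UTR peak of only 150 bp, a 3' UTR peak of 1974 bp and an exon peak outside the listed transcript. *RBFOX2*, which binds a short motif in introns, had 9.26, 9.40 and 10.1 FPKM and 3 peaks, the last a 3' UTR peak of 200 bp. *RBFOX1* was carried by 2 identifiers. ENSBGRG00000010442 is listed at 0 FPKM in all 3 input libraries although it has an exon peak of 150 bp, and ENSBGRG00000010556, whose terms name a lysine methyltransferase, had 2.23, 1.93 and 2.06 FPKM. None of the 6 CELF symbols of the RefSeq table was in the peak list.

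Regulators of mRNA stability and translation had low levels beside most other families, and narrow peaks. The median over 8 identifiers was 9.15 FPKM, above the 7.36 of all genes with a peak. *CPEB2*, which controls poly(A) tail length and translation, had 12.6, 13.4 and 13.3 FPKM with a 3' UTR peak of 298 bp and a peak of 496 bp in exon 1 of 13. *CPEB3* had 1.02, 1.34 and 1.29 FPKM and a peak of 199 bp in exon 1 of 9. *CPEB4* ENSBGRG00000012907 had 3.41, 3.34 and 3.36 FPKM and a 5' UTR peak of 249 bp, whereas the other identifier under that symbol, with kinetochore terms, had 51.2, 44.9 and 44.2 FPKM. *ELAVL2*, a binder of AU-rich elements in germ cells and neurons, had 7.03, 10.3 and 8.81 FPKM and a 3' UTR peak of 151 bp. *PUM2* ENSBGRG00000020491, a Pumilio repressor, had 11.4, 13.9 and 15.8 FPKM, with 1 peak of 1790 bp annotated to its last exon, although nearly all of the peak lay past the end of the listed transcript. *PUM3*, a nucleolar relative, had 10.9, 9.81 and 8.08. *CPEB1* and *ELAVL1* were not listed.

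**Figure D5:**
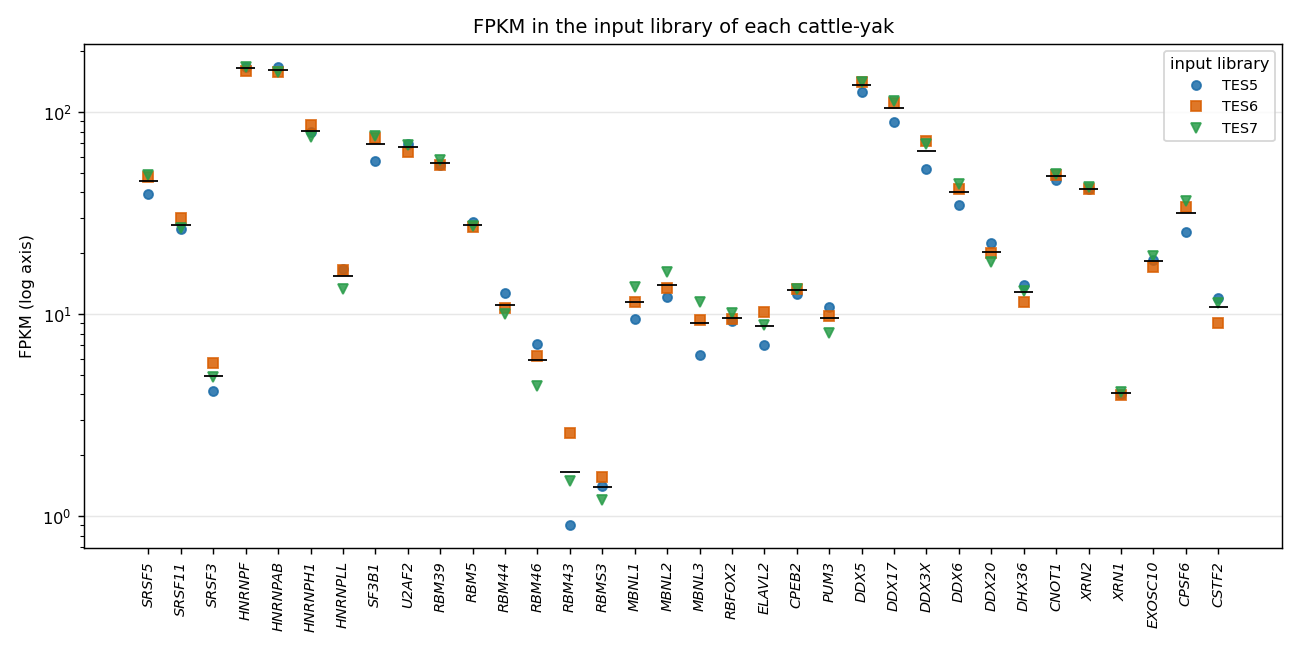
FPKM (log axis) in the input library of TES5 (circles), TES6 (squares) and TES7 (triangles) for 34 members in the order of the families, with the mean of the 3 as a black line. The animals differ little beside the range between genes, which runs from 1.40 (RBMS3) to 165 (HNRNPF) in the means, and RBM43 shows the widest spread, from 0.90 to 2.56.

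The DEAD/DEAH box helicases were the largest family, with 42 identifiers and 79 peaks, and 37 of 48 RefSeq symbols (77.1%) had a peak. Over all families, the peak list held 137 of 218 RefSeq symbols of the rule (62.8%) against 45.2% of 16457 protein-coding symbols. The share was below that in spliceosome subunits and LSM proteins (17 of 39, 43.6%) and in tissue splicing regulators (5 of 12, 41.7%). The median FPKM of the helicases was 16.5. The closely related *DDX5* and *DDX17*, which act in transcription, splicing and microRNA processing, were the highest. *DDX5* had 126, 141 and 141 FPKM (mean 136 ± 8.80, SD, n = 3) and 3 exon peaks of 384, 392 and 1326 bp on chromosome 19, in exons 2, 9 and 12 of 13. *DDX17* had 89.4, 111 and 114 FPKM and a single 3' UTR peak of 2623 bp on chromosome 5. The paralogs were both lowest in TES5, and their peaks carried different class labels. The *DDX5* peak of 1326 bp, however, lay at 78.8 to 94.2% of the listed transcript's span, and the *DDX17* peak at 79.1 to 94.0%. The difference there is one of labels.

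*DDX3X*, a helicase of translation initiation encoded on chromosome X, had 52.1, 71.5 and 69.8 FPKM, an exon peak of 8219 bp and a 3' UTR peak of 922 bp. The latter lay at 52.3 to 56.2% of the listed transcript's span. *DDX6*, which represses translation in P-bodies, had 34.5, 41.7 and 44.0 FPKM. Its peaks were a 5' UTR peak of 17581 bp and a 3' UTR peak of 147 bp, which with an exon peak of *DHX16* was the narrowest of all members. *DDX20*, a subunit of the SMN complex that assembles snRNPs, had 22.4, 20.1 and 18.0 FPKM and 1 peak of 801 bp in the 3' UTR. *DDX3X* and *DDX6* were lowest in TES5, while *DDX20* was highest there.

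Several helicases of rRNA processing were among the members. *DDX31* had 90.3, 81.5 and 84.5 FPKM, *DDX24* had 44.2, 44.2 and 40.9 with 4 exon peaks, and *DDX21* had 23.3, 21.4 and 22.9 with 2. *DDX10* had 6.40, 7.18 and 7.10 FPKM and an exon peak of 261674 bp on chromosome 13 (70131776 to 70393449) that took up 77.4% of its transcript.

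*DHX36*, which unwinds G-quadruplexes and is known from spermatogonial differentiation in mice, had 13.9, 11.5 and 13.0 FPKM. Its 4 peaks on chromosome 1 were spread from the 5' UTR (123404079 to 123411032) through exons 9 and 14 of 25 to the 3' UTR (123451022 to 123451711). *DHX29*, a helicase of scanning ribosomes, had 10.9, 11.7 and 11.3 FPKM and 4 peaks, 3 of them in exons. The RNA sensors *DDX58* (RIG-I) and *DHX58* (LGP2) were low, at 2.78, 4.39 and 4.36 FPKM and at 2.66, 3.57 and 3.06 FPKM. Each had 2 peaks and its lowest value in TES5. *DHX9*, *DDX25*, *DDX43*, *DDX39A* and *DDX39B* were among the 11 helicase symbols that were not listed.

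The deadenylation, decapping and decay genes were also widely listed, with 22 of 28 RefSeq symbols (78.6%) and a median FPKM of 14.3. *CNOT1*, the scaffold of the CCR4-NOT complex, had 45.9, 48.6 and 49.6 FPKM. Its 2 peaks of 653 and 250 bp were both in the 3' UTR on chromosome 20 (21158770 to 21159422), the shorter within the longer. The deadenylases of the complex each had 1 peak. *CNOT7* had 20.4, 32 and 27.0 FPKM with a 5' UTR peak of 150 bp, *CNOT8* had 22.4, 19.3 and 24.3 with a 3' UTR peak, *CNOT6L* had 9.18, 14.0 and 12.0 with a 3' UTR peak, and *CNOT6* had 9.21, 12.1 and 11.7 with an exon peak. *CNOT9* was the highest of the CCR4-NOT subunits, at 68.3, 72.9 and 76.7 FPKM, with a 5' UTR peak of 349 bp.

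The exonucleases among these genes differed in level. *XRN2*, the nuclear 5'-3' exonuclease, had 41.5, 41.5 and 42.4 FPKM and 3 exon peaks, annotated to exons 2, 7 and 13 of 30. Its cytoplasmic counterpart *XRN1* had 4.04, 4.0 and 4.11 FPKM and 1 exon peak. Both were among the most even genes between animals, with coefficients of variation of 1.28 and 1.39%. *EXOSC10*, a catalytic subunit of the nuclear exosome, had 18.5, 17.2 and 19.3 FPKM and 2 exon peaks. The decapping enzyme *DCP2* had 8.16, 10.2 and 11.1 FPKM and 1 exon peak, and *DCP1B* ENSBGRG00000000297 had 15.5, 12.2 and 11. The other 2 identifiers under *DCP1B*, with calcium channel terms, had means of 0.633 and 1.60 FPKM.

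The factors of 3' end formation had a median FPKM of 13.2 and the fewest UTR peaks. *CPSF6*, a subunit of cleavage factor I that influences the choice of poly(A) site, was the exception, with 25.4, 33.8 and 36.2 FPKM, a 5' UTR peak of 13271 bp and a 3' UTR peak of 9427 bp. The latter ran from 90.6 to 134.0% of the listed transcript's span, so most of it lay past the end. *CPSF3*, the endonuclease that cuts the pre-mRNA, had 20.5, 14.4 and 17.1 FPKM and a peak in an exon and in the 3' UTR. *CPSF2*, at 18.2, 20.9 and 18.0 FPKM, had 2 exon peaks. The cleavage stimulation factor subunits *CSTF1*, *CSTF2* and *CSTF3* had means of 12.6, 10.8 and 13.8 FPKM and exon peaks alone. *CSTF2T*, the retrogene of *CSTF2* known from male germ cells, was not listed.

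Between animals, the members varied about as much as other genes. The median coefficient of variation was 9.79% over the 152 members whose FPKM was 1 or more in all 3 libraries, against 11.6% over the 7629 such genes with a peak. TES5 held the highest value for 65 of these members (42.8%), TES6 for 42 (27.6%) and TES7 for 45 (29.6%). Over the 7629 genes, the shares were 35.9%, 29.65% and 34.5%. This order depends on the scale. After the libraries were set to the same sum of FPKM, TES5 was highest for 41, TES6 for 56 and TES7 for 55. These shares of members, 26.97%, 36.84% and 36.18%, were close to the rescaled shares over the 7629 genes, 25.04%, 38.52% and 36.44%. The largest coefficients among members with a mean of at least 1 belonged to *RBM43* (51.0%), *SF3A1* ENSBGRG00000023814 (44.2%), *MBNL3* (28.7%), *DHX57* ENSBGRG00000017590 (28.5%) and *DDX58* (24.0%).

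The tissue carried its somatic and some germ cell markers. Since only genes with a peak carry a symbol, a marker without one could not be read. With a peak were 4 of 9 Sertoli cell markers, 1 of 6 Leydig cell markers (*STAR*), 4 of 4 peritubular myoid markers, 3 of 7 spermatogonial, 3 of 6 spermatocyte and 0 of 7 spermatid markers, and 4 of 4 blood and endothelial markers. The summed FPKM were 339.5, 384 and 369.8 for the myoid markers, and 13.4, 14.9 and 13.1 for the blood and endothelial markers.

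Other genes of RNA processing that the symbol rule does not reach were similar. Of 93 further symbols (snRNP proteins, other splicing regulators, poly(A) binding, nonsense-mediated decay and microRNA effectors), 62 (66.7%) were in the list, on 66 identifiers with 142 peaks. Their median FPKM was 14.7, 63 had 1 FPKM or more in all 3 libraries, and 42 (63.6%) had more than 1 peak. *TRA2B*, an SR-like regulator of splicing, had 159.5, 138 and 129 FPKM and 1 peak. *SON*, a nuclear speckle protein, had 52.7, 53.8 and 62.7 FPKM and 6 peaks. The snRNP protein genes *SNRPB*, *SNRPB2*, *SNRPC*, *SNRPD1*, *SNRPD2*, *SNRPD3*, *SNRPE*, *SNRPF* and *SNRPG* had no listed peak, whereas *SNRPA* and *SNRNP200* had 2 each and *SNRNP70* had 1.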

How the data were processed

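m6A IP and input libraries of the testes of 3 cattle-yaks were used, each animal being 1 replicate. Per the submitters' processing notes and the study's methods, Trimmomatic trimmed the reads, SortMeRNA took out ribosomal sequence, and HISAT2 2.0.4 placed the rest on LU_Bosgru_v3.0. The peaks were called with MeTDiff and annotated with ChIPseeker by the authors, and deposited as 1 list with the width of each peak, its class, its gene and the gene's ontology terms, symbol and pathways. A peak can span introns, so its width is no measure of the methylated length. FPKM, deposited for the input libraries only, were made by the authors with a program not given in the sources used here. They keep no read numbers, so the depth behind a value is unknown, and no count model was used.

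Members were matched by symbol in the peak list and joined to FPKM by gene identifier. Of the 8986 genes with a peak, 8775 had an FPKM. From the files were computed peak numbers, shares with Wilson 95% intervals, positions along the listed transcript, and means, SD and coefficients of variation over the 3 input libraries. The number of RefSeq symbols was counted in a table of another assembly (Bosgru_T2T1.0), of which no coordinates were used. The genes named are, per family, the 3 with the most peaks, the 2 with the highest and the 1 with the lowest mean FPKM, besides the 5 largest coefficients of variation, members with peaks in all 3 classes, the 3 widest peaks, shared symbols and 65 names, of which 38 were found. Further members, *CNOT6*, *CNOT7*, *CNOT8*, *CPSF3*, *CSTF1*, *CSTF3*, *DDX31*, *DHX29*, *DHX58*, *PRPF6*, *RBM6*, *RBM10* and *RBM15B*, were named after their values were seen. Members, families and lists were chosen with earlier results of these data known, and the 16 identifiers with terms of another product were picked by reading their terms. The work was done in Python 3.11.15 with pandas 2.3.3, numpy 2.4.6 and SciPy 1.17.1, figures were drawn with matplotlib 3.10.9, and the procedures were tested on simulated data. LSM genes were counted in the family of spliceosome subunits, and a count without them was added after the data were seen. The alternatives were other filters, merging of peaks, weighting by width, rescaling of the libraries and leaving out each animal. Some members are not reported here.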

Additional observations from a re-analysis of the deposited data

How the results depend on the processing

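No paired analysis was possible because peaks were listed once for all animals, while FPKM exist for the inputs alone. All 344 alternative values of named genes stayed within 1 SD. For means with 1 of the 3 animals left out this was fixed in advance, so those values are no check. Of the 98 other alternative values, 80 stayed within their spread. Among peaks of at most 1000 bp, the exon share was 54.8% and the 3' UTR share 31.3%, and weighted by width the shares were 54.1% exon, 11.9% 3' UTR and 34.1% 5' UTR. Annotated to the last exon were 20.6% of the exon peaks of at most 1000 bp and 2.92% of those in transcripts of at least 3 exons. The median FPKM of members was 14.2 to 14.7 with 1 animal left out, 16.4 summed by symbol, 15.0 over members whose FPKM was 1 or more in all 3 libraries and 15.1 without identifiers whose terms name another product. That last setting, added after the data were seen, moved the SR median to 12.5 and the RBM median to 12.3 FPKM, and without LSM genes, also added then, the median of the spliceosome family was 16.4 FPKM. The hnRNP median was 89.1 to 90.9 FPKM with 1 animal left out. Spearman's rho of peak number and FPKM was 0.0237 with the FPKM filter, and Pearson's r was 0.0547 on log2(FPKM + 1) and 0.0693 on log2(FPKM + 0.1). The cause of these shifts was not tested. With 1 pooled peak list, how peaks vary between animals could not be measured, and 3 animals limit the precision of each mean.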
